A study of Mus musculus with 2 samples.

Results

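Histone lysine demethylases remove methyl groups from lysines of the histone tails, and 5 of their genes, Kdm1a, Kdm1b, Kdm3a, Kdm6a and Kdm6b, lay under peaks of FOS in mouse granulosa cells. A peak was counted for a gene when that gene was the nearest gene named for the peak or the host gene in which the peak lay. By this rule the 5 genes held 6 of the 2374 peaks of the library, of which Kdm1a held 2 and the other genes 1 each. The genes were chosen from the peak list itself, because the family took more peaks than most and Kdm1a held a high-scoring peak, so their number of peaks and their scores are given as a description with no test.

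FOS is a subunit of AP-1, a dimeric transcription factor, and chromatin immunoprecipitation with sequencing (ChIP-seq) marks the stretches of genome that were recovered with its antibody. The study's 2 libraries came from granulosa cells, the somatic cells around the oocyte, of wild-type female mice 25 days old. Follicles were grown with PMSG and ovulation was set off with hCG, a hormone that stands in for the luteinizing hormone surge, and follicles were punctured for their granulosa cells 3 h after hCG. The library made with the FOS antibody was analysed, and the other library, which has no antibody in its label, was not analysed here. With 1 library there was no replicate and no untreated group, the number of animals is not given in the sources used here, and the depth is unknown. A peak list holds no expression values, so the labelled cell type could not be checked from it. By the same rule 4 of 8 granulosa marker genes had a peak (Cyp19a1, Inhba, Nr5a2 and Lhcgr), and Fshr, Amh, Foxl2 and Inha had none. The theca marker Cyp17a1 had a peak, and Ptprc of immune cells and Pecam1 of endothelium had none. Over all protein-coding genes 8.69% had a peak. These few genes do not name a cell type.

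Demethylases fall into families with different chemistry. The lysine-specific demethylase family, KDM1, uses a flavin cofactor and acts on mono- and dimethylated lysines, chiefly H3K4, a mark of promoters and enhancers. The other families carry a Jumonji (JmjC) domain and need iron, oxygen and 2-oxoglutarate. Of these, KDM3 enzymes act on H3K9 methylation, which is linked to silencing, and KDM6 enzymes remove H3K27 methylation, which Polycomb repressive complex 2 (PRC2) lays down.

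The peaks fell at both KDM1 genes, both KDM6 genes and 1 of the 2 genes that bear a KDM3 symbol. None of the 2 KDM2, 4 KDM4, 4 KDM5, Kdm7a and Kdm8 genes had a peak. Among them Kdm5d is Y-linked and could have none in cells from females. Over all 21887 protein-coding genes 8.69% had at least 1 peak by this rule, against 5 of the 18 protein-coding Kdm genes, and since the 5 were picked for their peaks that difference carries no weight. At least 2 peaks, as at Kdm1a, were held by 317 of the 1902 protein-coding genes with a peak, or 1.45% of all protein-coding genes. The number of peaks was part of the choice, so this share is a description as well. The pseudogene Kdm4dl had no peak either.

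**Figure D1:**
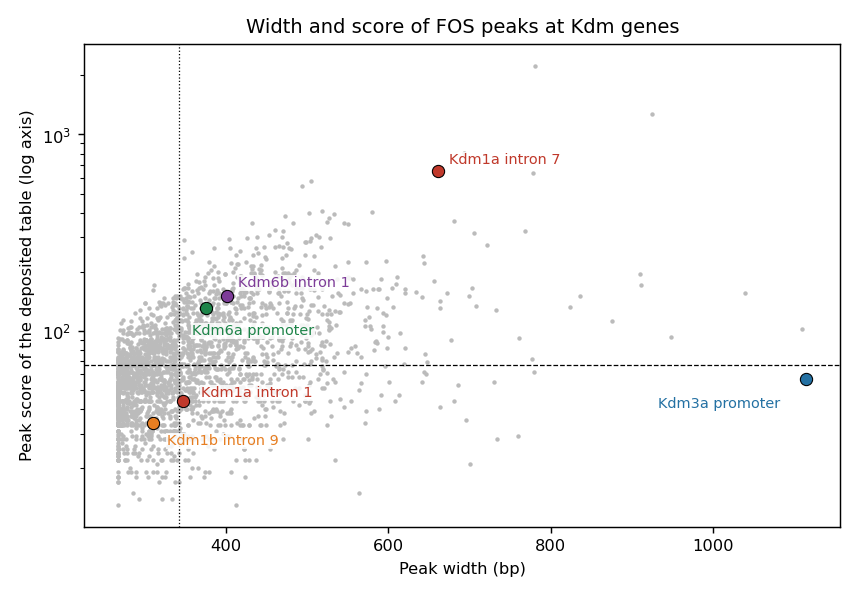
Peak width in bp against the authors' peak score on a log axis for all 2374 FOS peaks. The 6 peaks at the 5 demethylase genes are coloured and named, and the others are grey. The dashed line is the median score, 67, and the dotted line the median width, 342 bp. The Kdm1a peak in intron 7 stands near the top of the list, and the Kdm3a promoter peak stands at the far right, below the median score.

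Kdm1a encodes LSD1, the best studied flavin-dependent demethylase and a part of the CoREST corepressor complex. Its main peak lay in intron 7 of 18 at chr4:136569849-136570509 (mm10), 32.54 kb downstream of the transcription start site (TSS). The authors' peak score, a whole number with no stated scale that served here to rank peaks within the list, was 652. It ranked 4 of 2374, in a list that ran from 13 to 2234 with a median of 67. Directly above it by score stood a peak of score 1277 between genes, whose nearest gene was Twsg1, and a peak of score 808 in an intron of Nell2. Directly below stood a peak of score 637 in an intron of Efr3b, assigned to Pomc, and 1 of score 577 inside Htra3. All 4 of these peaks, like that of Kdm1a, lay outside the promoter class. The Kdm1a peak was 661 bp wide, wider than 98.4% of the peaks.

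The other Kdm1a peak scored far lower. It lay in intron 1 of 18 at chr4:136598448-136598794, 4.102 kb downstream of the TSS, scored 44 and was 347 bp wide. Of all peaks, 20.1% scored lower. The pair was separated by 27.9 kb of the gene, which spans 52.3 kb, and no further peak lay within 100 kb of either. Luzp1, the protein-coding gene nearest to the intron 7 peak after Kdm1a, was 15.1 kb from it, and Tex46, which took the same place for the intron 1 peak, was 8.3 kb away. Assignment to Kdm1a therefore rests on position, and the gene on which either peak acts was not measured.

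Kdm1b encodes LSD2, the other flavin-dependent enzyme, known for its part in setting DNA methylation at imprinted genes in the oocyte. Its peak at chr13:47063177-47063486 was in intron 9 of 20, 19.83 kb downstream of the TSS. With a score of 34 it was the lowest of the 6, and 10.6% of all peaks scored lower. It was 310 bp wide, narrower than the median peak. The 2 KDM1 genes thus held both the highest and the lowest score among the 6 peaks.

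**Figure D2:**
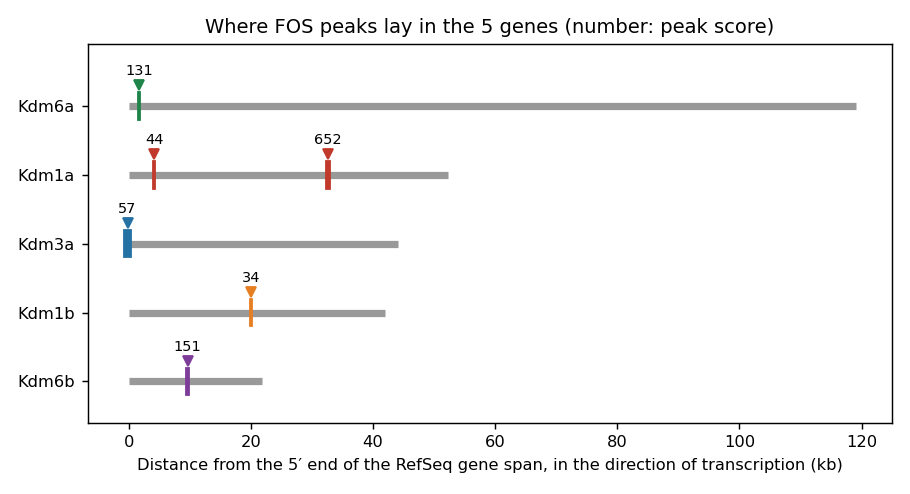
The 5 genes as grey bars from the 5′ end of the RefSeq gene span, in kb and drawn to scale, with each FOS peak as a coloured block at its true width and its score above an arrowhead. The peaks of Kdm3a and Kdm6a sit at the 5′ end, and those of Kdm1b, Kdm6b and the high-scoring peak of Kdm1a (652) lie inside the gene.

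Kdm6b encodes JMJD3, an H3K27 demethylase whose gene is known to be induced by many signals. Its peak at chr11:69410547-69410948 scored 151, ranked 227 with ties sharing the best rank, and was 402 bp wide. It lay in intron 1 of 22, 2.928 kb downstream of the TSS that the authors' annotation used. The RefSeq gene span of 21.9 kb begins further upstream, so the peak centre lay 9.62 kb, or 44.0% of the span, from that 5′ end. This is the most crowded of the loci, with 5 other protein-coding genes within 50 kb of the peak, of which Dnah2 was nearest at 9.86 kb. The nearest other peak lay 339 kb away.

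Kdm6a encodes UTX, the X-linked H3K27 demethylase that also sits in the KMT2C and KMT2D complexes, which methylate H3K4. Its peak at chrX:18162326-18162701 was in the promoter class, with its centre upstream of the TSS, at -154 bp. It scored 131, ranked 336 and was 376 bp wide. This was the highest score of the 15 peaks on the X chromosome, where the median was 58. The nearest other peak lay 4.7 Mb away, towards Nyx. Kdm6a and Kdm6b, the 2 H3K27 demethylase genes, both had a peak scoring 99 or more, the upper quartile of the list, as did Kdm1a. Such a peak was held by 558 of the 1902 protein-coding genes with any peak, or 2.55% of all protein-coding genes. Since the genes were picked with their peaks and scores known, this comparison carries no weight.

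Kdm3a encodes an H3K9 demethylase whose gene is a known target of hypoxia-inducible factors. Its peak at chr6:71632653-71633766 was in the promoter class, with its centre upstream of the TSS, at -523 bp. At 1114 bp it was the widest of all 2374 peaks, where the median was 342 bp and the next widest, in Adgrv1, was 1109 bp. Among promoter peaks alone the next widest was 686 bp. Its score was 57, below the median of the list, and 37.4% of peaks scored lower. Across all peaks wider ones tended to score higher (Spearman's rho 0.471 over 2374 peaks of 1 library, given as a description), and the 20 widest had a median score of 119.5, with 5 of them below the list's median. The peak covered 2 of the 3 Kdm3a TSSs for which a RefSeq promoter window was held, 231 bp apart, and did not reach the third. No other peak lay within 100 kb.

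The promoter sequences under the Kdm3a and Kdm6a peaks are shown because these were the members whose TSS lay inside a peak. Both are RefSeq windows of GRCm38.p6, the assembly behind mm10, from 250 bases before to 50 bases after a TSS, written 5′ to 3′ along the gene. Capitals mark matches to the motifs searched on both strands, which were AP-1 (TGANTCA), the cAMP response element or CRE (TGACGTCA), its core (TGACGT, also counted inside a CRE), the hypoxia site (ACGTG) and the E-box (CACGTG, which contains the hypoxia site). The Kdm3a window, chr6:71632637-71632936 on the minus strand, belongs to the TSS the authors' annotation used and had 284 of its 300 bases under the peak. The Kdm6a window, chrX:18162325-18162624 on the plus strand, had 299. Its TSS lay upstream, at -92 bp, of the TSS the authors' annotation used, from which the -154 bp of the peak was counted.
Kdm3a promoter: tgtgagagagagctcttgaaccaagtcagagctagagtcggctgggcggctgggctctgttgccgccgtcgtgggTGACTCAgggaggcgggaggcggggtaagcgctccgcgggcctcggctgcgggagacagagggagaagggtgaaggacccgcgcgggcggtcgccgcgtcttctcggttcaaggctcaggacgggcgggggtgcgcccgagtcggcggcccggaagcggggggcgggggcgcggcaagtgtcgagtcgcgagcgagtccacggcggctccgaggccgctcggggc
Kdm6a promoter: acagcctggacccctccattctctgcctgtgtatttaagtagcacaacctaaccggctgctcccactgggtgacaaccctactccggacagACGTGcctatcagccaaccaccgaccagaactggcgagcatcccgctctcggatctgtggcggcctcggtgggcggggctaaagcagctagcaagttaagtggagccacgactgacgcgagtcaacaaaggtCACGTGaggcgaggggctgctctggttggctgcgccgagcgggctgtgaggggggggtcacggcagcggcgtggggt

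The Kdm3a window held 1 AP-1 match, TGACTCA, starting 175 bases upstream of the TSS and centred 352 bp from the centre of the peak. The window of the other Kdm3a TSS under the peak had no match to any of the 5 motifs as spelled here. The hypoxia site was searched as ACGTG only, so variants of it such as GCGTG were not counted in any window. The third Kdm3a window, outside the peak, also held TGACTCA. The Kdm6a window held no AP-1 or CRE match. It held an E-box, CACGTG, centred 37 bp from the peak centre and a further hypoxia site, ACGTG, centred 96 bp from it. Among all 32841 promoter windows 7.81% held an AP-1 match, 7.15% an E-box and 19.6% a hypoxia site. Among the 266 windows with at least 150 bases under a FOS peak these shares were 36.5%, 18.4% and 36.1%. The 2 other motifs were also more frequent there, the CRE at 9.4% beside 1.79% and its core at 25.6% beside 7.51%. The windows under a peak were richer in G and C bases, with a median of 59.7% beside 52.7% over all windows. The part this plays in the shares was not tested. The matches were not particular to genes with a peak. Among 13 windows of Kdm genes without a peak, 2 (of Kdm4a and Kdm5c) held an AP-1 match and 1 (of Kdm4c) an E-box. A hypoxia site was held by 4 of the 13 and the CRE core by 3. These 13 windows were not 1 per gene. Kdm2b and Kdm4c had more than 1 each, and none was held for Kdm2a, Kdm3b, Kdm4b or Kdm5a. A match shows only that the letters are present. Windows were held for 4 of the 5 genes. Those of Kdm1a and Kdm1b lay outside their peaks and had no match. Sequences of the intronic peaks were not analysed here.

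The choice of genes used position only to assign peaks, by nearest or host gene, and did not name the class, the distance to the TSS or the width. All 6 peaks lay in or at the gene they were assigned to, so that host and nearest gene were the same, as they were for 76.9% of the 1534 peaks within an annotated gene. None was intergenic, compared with 35.4% of all peaks, and 4 were intronic, compared with 44.7%. Of these 4, those of Kdm6b and the weaker of Kdm1a were in intron 1, which held 40.9% of all intronic peaks. The promoter class held 2 of the 6 (33.3%, exact Clopper-Pearson 95% interval 4.33 to 77.7, counting error only) and 15.2% of all peaks. The interval treats 6 peaks of 5 chosen genes as independent draws, so no comparison is drawn from it. Over all protein-coding genes 1.66% had a promoter peak. The distance to the TSS had a median of 3.52 kb over the 6 peaks and of 18.2 kb over all, and 4 of the 6 lay within 5 kb, compared with 29.3% of all peaks. With 6 peaks from 5 genes of 1 library these differences were not tested.

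Genes with a peak were longer than genes at large. Protein-coding genes had a median span of 17.2 kb, and those with a peak 43.0 kb. The 5 genes spanned 21.9 to 119 kb with a median of 44.0 kb. The 13 other protein-coding Kdm genes had a longer median span, 70.2 kb. That they had no peak follows from the choice of the 5 genes, so no comparison is drawn from it. The part that length plays in the count was not tested.

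**Figure D3:**
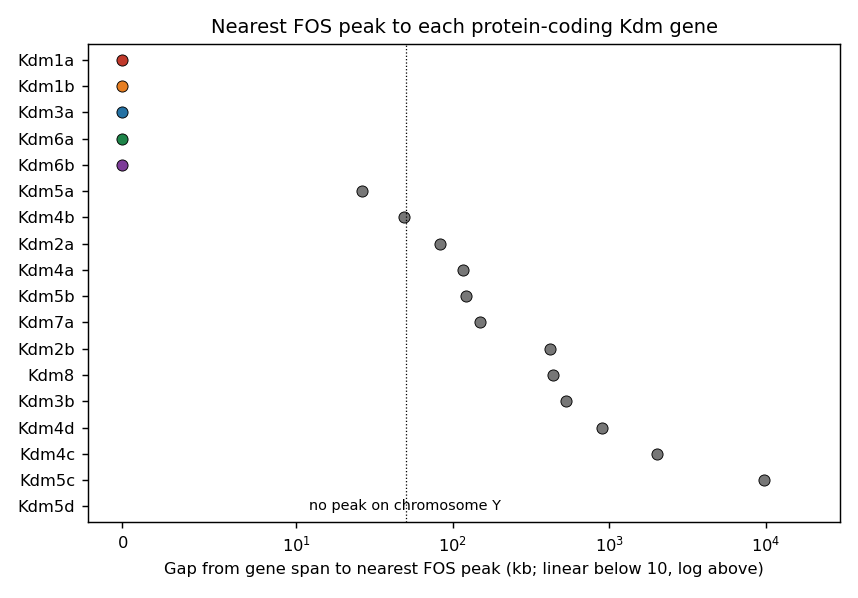
Gap in kb between the span of each protein-coding Kdm gene and the nearest FOS peak, on an axis that is linear below 10 kb and logarithmic above it, with a dotted line at 50 kb. The 5 genes with a peak (coloured) sit at 0, Kdm5a and Kdm4b lie at 26.1 and 48.7 kb, and chromosome Y, which carries Kdm5d, had no peak.

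The Kdm genes without a peak differed in how far the nearest peak lay. Kdm5a, an H3K4 demethylase, was 26.1 kb from a peak of score 38 in an intron of Il17ra. Kdm4b, which acts on H3K9 and H3K36, was 48.7 kb from a promoter peak of score 84 at Ticam1. These 2 were the only genes of the 13 with a peak within 50 kb of their span, which 11.2% of the 19985 protein-coding genes with no peak of their own had. Kdm2a followed at 83.3 kb, then Kdm4a at 116 kb, Kdm5b at 121 kb and, further off, Kdm7a. For Kdm2b, Kdm3b, Kdm4c, Kdm4d, Kdm5c and Kdm8 the gap exceeded 400 kb, up to 9745 kb for Kdm5c on the X chromosome. The median gap over the 12 genes on chromosomes with a peak was 282 kb, beside 332 kb over the 19729 protein-coding genes on those chromosomes that likewise held no peak of their own. Neither difference was tested. Kdm5d is on the Y chromosome, which had no peak in cells from females.

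**Figure D4:**
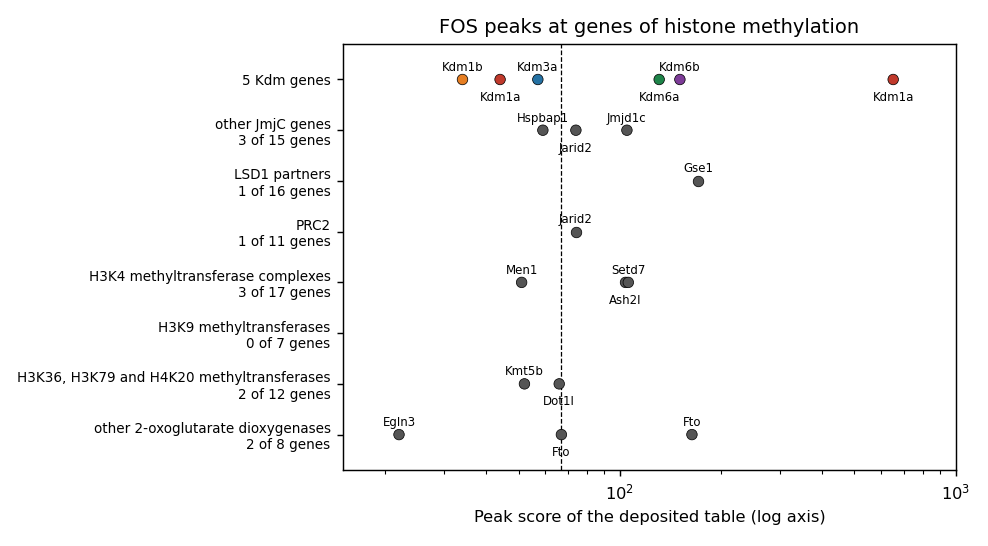
The authors' peak score, on a log axis, of each FOS peak at the 5 demethylase genes and at genes of 7 lists of histone methylation and related enzymes, with the number of genes with a peak under each list's name. The dashed line is the median score of all peaks, 67. Gse1 (171) and Fto (164) have the highest scores outside the Kdm genes, and the H3K9 methyltransferases have no peak.

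Genes that work with or against these enzymes held some peaks too. Across 7 lists with 85 different genes, 11 had at least 1 peak (12.9%, beside 8.69% of all protein-coding genes). Of the 15 other genes with a JmjC domain 3 were covered. Jmjd1c, a relative of Kdm3a without a Kdm symbol, had a peak of score 105 in the promoter class that lay 58.4 kb downstream of the TSS used for the distance. Jarid2, a JmjC protein of PRC2 without demethylase activity, was covered by a peak scoring 74 in intron 2 of 18. The Hspbap1 peak, of score 59, lay upstream of its TSS, at -274 bp, and in the promoter class of the neighbouring gene Dirc2. Phf8 and Phf2, of the same family as Kdm7a, had none. Uty, the Y-linked relative of Kdm6a, is counted in the list but could have no peak in cells from females.

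Of 16 partners of LSD1, 1 was covered (6.25%), beside 8.69% of all protein-coding genes. The lists are short and none was tested against that share, so no pattern is read from the counts that follow. Gse1, which encodes a protein found with the CoREST complex, held, in intron 3 of 15, a peak of score 171 that was assigned to the neighbouring gene Gins2. The corepressors Rcor1, Rcor2 and Rcor3 and the deacetylases Hdac1 and Hdac2 had no peak. On the side of the methyltransferases, which KDM6 enzymes oppose at H3K27, 1 of 11 PRC2 genes was covered, namely Jarid2, and neither Ezh1 nor Ezh2 was. Of 17 genes of H3K4 methyltransferases and their complexes 3 were covered. Setd7 had a promoter peak of score 106, Men1, which encodes menin, a promoter peak of score 51, and Ash2l a peak scoring 104 in intron 13 of 15 that was assigned to Star. None of the 7 H3K9 methyltransferase genes had a peak. Among 12 methyltransferase genes for H3K36, H3K79 and H4K20, Dot1l had a peak in intron 1 of 27 (score 66) and Kmt5b in intron 3 of 13 (score 52). Of the 8 other 2-oxoglutarate dioxygenases, Fto, an RNA demethylase, had peaks of score 164 and 67 in introns 8 and 7 of 8, and the oxygen sensor Egln3 an intergenic peak of score 22. The best of these scores, 171 at Gse1, was above those of Kdm6b and Kdm6a and below that of Kdm1a.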

How the data were processed

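The authors' deposited table for the FOS library was used. Per the file headers, a narrowPeak file was annotated with the annotatePeaks program of HOMER, and the build was mm10, with MACS2 2.2.7.1, BWA, deepTools 3.5.1 and Trim Galore as tools, per the submitters' processing notes. Neither the peak caller's threshold nor its control library is given in the sources used here. The peak score is the authors' deposited score and ranks peaks within this list. Positions, class and distance to the TSS are as deposited, and width is end minus start plus 1.

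Names were matched to RefSeq genes of GRCm38.p6 by accession, symbol or older symbol (Kmt5b is Suv420h1 in the table). All 1965 nearest genes matched, and 3 of 1314 host names did not. The genes and lists were chosen with earlier results of these data known. A gene of the lists is not reported here. Named are the 5 genes, up to 4 covered genes per list, and the peaks beside the best one by score. Rcor1, Rcor2, Rcor3, Hdac1, Hdac2, Ezh1, Ezh2, Uty, Phf8, Phf2 and Adgrv1, and Kdm4a, Kdm4c and Kdm5c for their motifs, were named after their values were seen, and the 150-base overlap was set then too. No test was run. Alternatives covered assignment, score, distance, background and overlap. Name matching and motif search were tested on simulated data. Python 3.11.15, numpy 2.4.6, scipy 1.17.1, pandas 2.3.3 and matplotlib 3.10.9 were used.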

Additional observations from a re-analysis of the deposited data

How the results depend on the processing

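The 6 peaks at the 5 genes were the same in number with the nearest gene alone, with the host gene for peaks inside a gene, within 50 kb of the TSS and within 50 kb of the gene span. Within 10 kb of the TSS 4 peaks at 4 genes were left, without the Kdm1a peak of score 652 and without Kdm1b. Among peaks scoring no less than the list's median, and likewise among those in the upper quartile, 3 peaks at 3 genes were left. No other Kdm gene gained a peak except with any peak within 50 kb of the gene span, which gave 2. The share of protein-coding genes with a peak moved from 8.69% to 7.58% with the nearest gene alone, 7.94% with the host gene first, 4.75% from the median score up, 2.55% in the upper quartile, 3.85% within 10 kb and 6.84% within 50 kb of the TSS, and 18.2% within 50 kb of the gene span. With all annotated genes as background it was 4.44%. The median score of the 6 peaks, 94, was 57 without the Kdm1a peak of the highest score. Counting promoter windows with any base under a peak, an alternative chosen after seeing the data, lowered the share with an AP-1 match from 36.5% to 29.6%. No paired analysis was possible because no result comes from a test and 1 library was analysed. The depth is unknown, so a gene without a peak cannot be told from a gene whose peak was below the threshold.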

Other observations

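Width set another gene of this circle apart. The Gse1 peak, at 911 bp, was the sixth widest of the 2374 peaks, and the third widest, at 1039 bp and a score of 155, lay in an intron of H3f3b, which encodes the replication-independent histone H3.3. Kdm3a was the only promoter-class peak among the 20 widest. These peaks were singled out after their widths were seen.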
